A study of Mus musculus with 6 samples.

Results

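The negative feedback genes of MAP kinase signalling were compared between RAW 264.7 cells with an APOBEC1 knockout (KO) and unmodified RAW 264.7 cells (WT). The 10 genes were chosen by name from the 24848 gene symbols of the deposited table, and all 10 are listed there. They are the MAP kinase phosphatases Dusp1, Dusp2, Dusp4, Dusp5, Dusp6 and Dusp16, the small phosphatase Dusp3, and the Ras-pathway inhibitors Spry1, Spry2 and Spred1. RAW 264.7 is a mouse macrophage-like line grown here in serum-containing medium with no stimulus named in the labels. Each of the 3 KO and 3 WT libraries was made from poly(A) RNA of its own culture plate. Both groups are the same line and differ, by the labels, in Apobec1 alone, the gene of an enzyme that deaminates cytidine in RNA. The labels give neither the allele nor the number of clones, so the effect of the knockout and other differences between the cell stocks cannot be told apart.

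MAP kinases (ERK, JNK and p38) are switched on when both a threonine and a tyrosine of their activation loop are phosphorylated. Dual-specificity phosphatases remove both phosphates, and many of their genes are themselves induced by MAP kinase signalling, which closes a feedback loop. Sprouty and SPRED proteins act further up and restrain the activation of Ras and Raf by growth factor receptors. In macrophages Dusp1 is best known for limiting p38 and JNK activity, and with it cytokine output, after Toll-like receptors are engaged.

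The upstream sequences of 3 members are shown because these genes carry the main differences described further on: Dusp1 was the only member called lower in KO, Dusp6 had the largest called rise, and Dusp5 holds the densest group of motif matches. Each runs 5′ to 3′ on the gene's strand over the 250 bases before the RefSeq start (build GRCm38.p6). The capitals mark the core TGACG of the cAMP response element (CRE) on either strand, the full CRE, TGACGTCA, and CArG boxes, the element bound by serum response factor. The Dusp1 stretch is chr17:26508473-26508722 (minus strand), that of Dusp6 chr10:99262981-99263230 (plus strand) and that of Dusp5 chr19:53528895-53529144 (plus strand).
Dusp1: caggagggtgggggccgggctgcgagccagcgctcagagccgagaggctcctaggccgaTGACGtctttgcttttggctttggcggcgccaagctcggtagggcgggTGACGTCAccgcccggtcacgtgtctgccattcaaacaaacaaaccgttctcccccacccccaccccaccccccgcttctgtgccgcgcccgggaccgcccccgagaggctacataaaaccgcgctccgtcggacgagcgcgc
Dusp6: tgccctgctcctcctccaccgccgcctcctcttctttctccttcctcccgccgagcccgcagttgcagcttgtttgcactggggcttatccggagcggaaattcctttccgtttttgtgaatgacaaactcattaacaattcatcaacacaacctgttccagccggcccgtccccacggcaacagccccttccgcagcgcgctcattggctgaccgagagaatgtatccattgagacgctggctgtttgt
Dusp5: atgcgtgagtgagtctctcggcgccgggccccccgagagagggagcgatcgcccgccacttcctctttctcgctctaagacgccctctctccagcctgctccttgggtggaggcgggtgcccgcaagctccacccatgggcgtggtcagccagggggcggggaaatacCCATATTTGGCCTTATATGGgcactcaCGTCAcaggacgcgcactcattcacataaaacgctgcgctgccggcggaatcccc

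RefSeq promoters of 300 bases (250 before and 50 after the start) were found for 9 of the 10 members, Dusp4 being the one without an entry, and were searched on both strands. The full CRE was present in 1 member, Dusp1, at 143 to 136 bases before the start, and in 1.79% of the 32851 promoters in the table. Dusp1 held a further TGACG core at 191 to 187 bases before the start. The core, which is part of the full CRE, was found in 4 members (Dusp1, Dusp2, Dusp5 and Dusp16) and in 20.8% of all promoters. CArG boxes were found in 1 member, Dusp5, where CCATATTTGG and CCTTATATGG follow each other directly at 82 to 63 bases before the start. Of all promoters 1.63% held a CArG box. The ETS motif CCGGAA was found in 1 member, Spry2, and in 14.9% of promoters. Shorter ETS cores were not searched for. The AP-1 motif TGANTCA and the TATA motif TATAAA were found in 0 members, against 7.81% and 13.6% of all promoters. These matches describe the letters of the windows only.

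Sequencing gave 50493447 to 70411383 gene-assigned reads a library, and levels are given as the CPM of the authors, which are read counts scaled to one common total in every library. All 10 macrophage markers, among them Csf1r, Cd68 and Spi1, were expressed, at 3970 to 4402 CPM summed in KO and 3667 to 3810 CPM in WT. Of these markers 3 were called higher and 2 lower in KO, among them Lyz2, at 1238 ± 121 CPM in KO and 708 ± 49.0 CPM in WT, and Adgre1, at 31.9 ± 2.38 CPM in KO and 45.4 ± 2.22 CPM in WT (limma adjusted p = 0.000506 and 0.00245). The 17 markers of fibroblasts, epithelial cells, T cells and B cells summed to 0.495 to 0.611 CPM in KO and 0.317 to 0.460 CPM in WT, and 7 of them, among them Col1a1, Krt18, Cd3e and Ms4a1, had 0 reads. Apobec1 mRNA averaged 347 ± 12.5 CPM in KO and 400 ± 29.3 CPM in WT (SD, n = 3 each) and missed the threshold (log2 fold change -0.20, limma adjusted p = 0.0663). It was called lower without WT replicate 1 (-0.25, limma adjusted p = 0.0178), with libraries centred on their medians (0.0493), with quantile normalization (0.0132) and by DESeq2 (adjusted p = 0.0327), and lay at -0.03 when libraries were centred per chromosome. The mRNA was abundant in every KO library, so its level does not check the labels. Which WT library stood furthest from its group differed between the measures as computed. WT replicate 1 had a median absolute log2 difference of 0.156 from the mean of the other 2 WT libraries. That distance was 0.127 and 0.0906 for WT replicates 2 and 3, and 0.0684 to 0.0954 for the KO libraries. By chi-square per degree of freedom of the read counts, WT replicate 2 stood furthest, at 226 and 139 from WT replicates 1 and 3, which were 52.1 apart, against 41.9 to 47.6 among the KO libraries. The ribosomal RNA gene Rn45s took 0.542% to 1.40% of reads in KO, and 2.75%, 0.381% and 2.44% in WT replicates 1, 2 and 3. Rn45s was among the genes summed in the chi-square, and its share was lowest in WT replicate 2. The place of WT replicate 2 by that measure may therefore rest largely on Rn45s, and the chi-square was not computed without it. Fits of single members that rest on WT replicate 1 or 2 are therefore also given without it. Counts of called genes in the lists are also given without WT replicate 1 where they moved.

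Of the 10 members, 8 reached 1 CPM in every library and were tested with limma on log2(CPM + 0.5), with Benjamini-Hochberg adjustment over all 10614 tested genes and a threshold of 0.05. Dusp4 and Dusp6 were higher in KO, Dusp1 was lower, and 5 members were not called. The 3 called members are read against a background of 30.4% of all tested genes called, 13.5% higher and 16.9% lower in KO, which is near their own share of 37.5%. The groups did not overlap for 5 of the 8, with KO above WT for Dusp4, Dusp5, Dusp6 and Spred1 and below WT for Dusp1. Over all tested genes the groups did not overlap in 46.4%, with KO above WT in 20.9% and below in 25.4%. The median log2 fold change of the 8 members was 0.11, against -0.02 over all tested genes. Bulk RNA does not tell a change in every cell from a change in the share of cells that express a gene. The replicates are separate plates, so p-values measure the spread between plates.

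**Figure D1:**
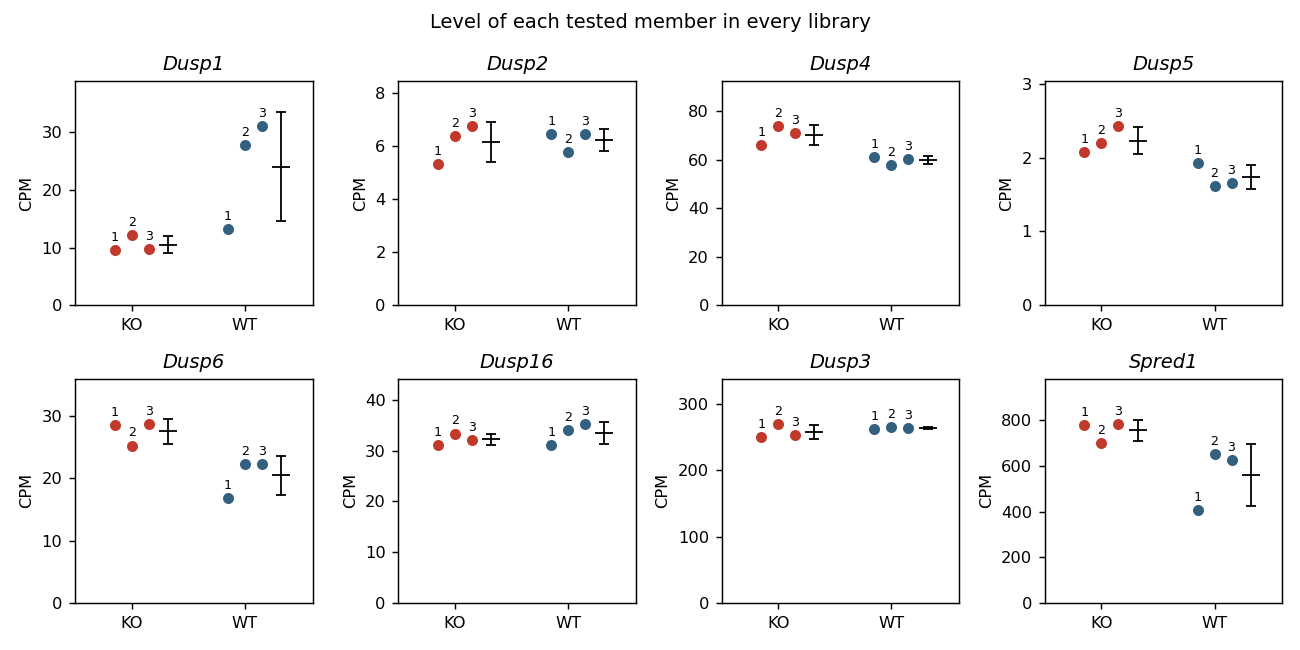
CPM of each tested member (linear axes from 0) in the KO and WT libraries, with the replicate number over each point and the mean ± SD beside each group. Dusp1 is lower in all KO libraries, and WT replicate 1 is the lowest WT library for Dusp1, Dusp6, Spred1, Dusp16 and Dusp3.

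Dusp1 encodes a nuclear phosphatase of p38, JNK and ERK that is induced within minutes of stress or receptor stimulation. It stood at 9.52, 12.2 and 9.77 CPM in KO replicates 1, 2 and 3, against 13.3, 27.7 and 31.1 CPM in WT replicates 1, 2 and 3. All KO values lay below all WT values, but WT replicate 1 was close to the KO libraries and far from the other WT libraries. The mean was 10.5 ± 1.51 CPM in KO and 24.0 ± 9.47 CPM in WT (SD, n = 3 each), 2.29-fold lower in KO. The log2 fold change was -1.08 ± 0.29 (SE, 95% interval -1.74 to -0.42, limma adjusted p = 0.0246). Without WT replicate 1 it was -1.45 (limma adjusted p = 0.000178), and without WT replicate 2 it was -0.93 (limma adjusted p = 0.0302). The call was lost without KO replicate 1 (adjusted p = 0.0946), KO replicate 3 (adjusted p = 0.0750) or WT replicate 3 (adjusted p = 0.0811), in limma fits with log2 fold changes of -1.01, -1.03 and -0.85. Only 2.31% of the 562 tested genes of chromosome 17, where Dusp1 lies, had a lower log2 fold change.

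Dusp1 also varied widely among the WT libraries. The coefficient of variation was 14.4% in KO and 39.4% in WT, and 1.37% of tested genes had a larger one in WT. The level in WT replicate 1 was 0.452 of the mean of WT replicates 2 and 3, a ratio that was lower in 0.301% of tested genes. Fos, a classical immediate early gene that was named after its values were seen, was likewise high in WT replicates 2 and 3 and low in WT replicate 1. Fos stood at 10.9, 15.3 and 10.1 CPM in KO, against 9.31, 35.2 and 45.0 CPM in WT replicates 1, 2 and 3. With all 6 libraries Fos was not called (log2 fold change -1.02 ± 0.51, limma adjusted p = 0.171). Its fit without WT replicate 1 is not given here, so the missed call is not read as no difference. Fos was lowest of all 6 libraries in WT replicate 1. It was alone in this among the tested transcripts known to rise with ERK activity, a list described below. The level in WT replicate 1 was 0.232 of the mean of WT replicates 2 and 3 for Fos. For the other tested genes of that list the ratio ran from 0.821 (Egr3) to 1.71 (Epha2), with 0.962 for the immediate early gene Ier3.

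The genes outside the members whose centred log2 profile over the 6 libraries lay nearest to that of Dusp1 were Cysltr1, Maf and Clec4a1, with root mean square distances of 0.189, 0.237 and 0.268. Cysltr1, a receptor for cysteinyl leukotrienes, had 6.12, 5.74 and 5.82 CPM in KO, against 6.95, 14.0 and 13.7 CPM in WT. Maf, a macrophage transcription factor, had 5.14, 4.08 and 4.02 CPM in KO, against 7.49, 13.0 and 13.0 CPM in WT. The lectin gene Clec4a1 had 4.62, 5.25 and 4.23 CPM in KO, against 9.61, 12.1 and 12.7 CPM in WT. In each of these genes WT replicate 1 lay between the KO libraries and the other WT libraries.

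**Figure D2:**
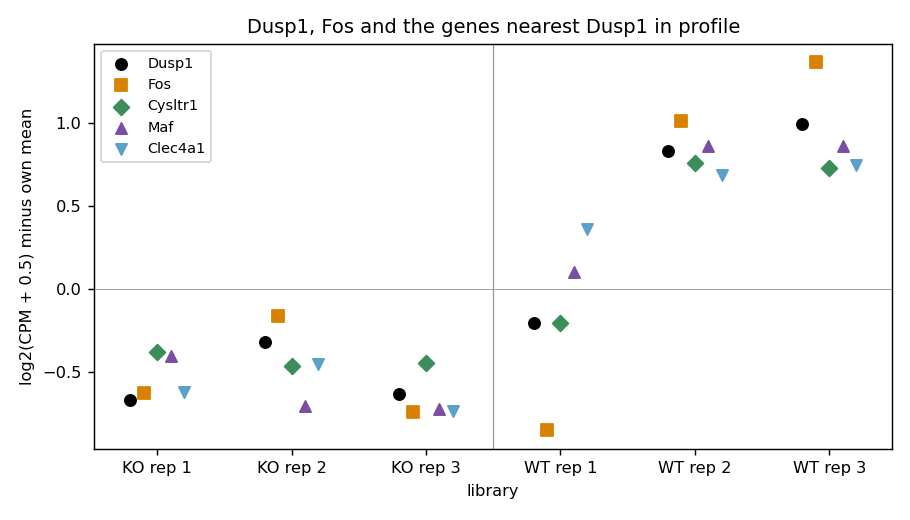
Log2(CPM + 0.5) of Dusp1, Fos, Cysltr1, Maf and Clec4a1 in each library, minus each gene's mean over the 6 libraries. WT replicates 2 and 3 lie highest for every gene, and WT replicate 1 lies near the KO libraries for Dusp1, Cysltr1 and Fos.

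Dusp6 encodes the cytoplasmic phosphatase that is specific for ERK and is a widely used readout of ERK signalling. It stood at 28.6, 25.3 and 28.8 CPM in KO replicates 1, 2 and 3, against 16.9, 22.3 and 22.3 CPM in WT replicates 1, 2 and 3. All KO libraries were above all WT libraries. The mean was 27.6 ± 1.98 CPM in KO and 20.5 ± 3.11 CPM in WT, 1.35-fold higher in KO. The log2 fold change was 0.43 ± 0.12 (95% interval 0.15 to 0.71, limma adjusted p = 0.0301), and without WT replicate 1 or 2 it was 0.30 or 0.49 (limma adjusted p = 0.0260 and 0.0161). The call was lost without KO replicate 1 (limma adjusted p = 0.112) or KO replicate 3 (limma adjusted p = 0.0960). The nearest profiles were those of Stk3, Lims1 and Rbm18, at distances of 0.0342, 0.0353 and 0.0387. Stk3 had 41.8, 36.9 and 39.3 CPM in KO, against 24.5, 32.3 and 31.6 CPM in WT.

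Dusp4 encodes a nuclear phosphatase related to Dusp1 and likewise induced by ERK. It stood at 65.9, 73.9 and 70.9 CPM in KO, against 61.0, 57.8 and 60.2 CPM in WT. The groups did not overlap, and the WT libraries lay close together, with a coefficient of variation of 5.75% in KO and 2.76% in WT. The mean was 70.3 ± 4.04 CPM in KO and 59.7 ± 1.65 CPM in WT, 17.7% higher in KO. The log2 fold change was 0.23 ± 0.07 (95% interval 0.08 to 0.39, limma adjusted p = 0.0338). This call was lost without KO replicate 2 (limma adjusted p = 0.129), KO replicate 3 (0.101), WT replicate 2 (0.0981) or WT replicate 3 (0.0879).

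Dusp5, a nuclear phosphatase specific for ERK, was the least abundant tested member. It stood at 2.07, 2.19 and 2.43 CPM in KO, against 1.92, 1.62 and 1.66 CPM in WT, which is 131 to 162 reads in KO and 97 to 109 reads in WT. Every KO value exceeded every WT value, and the log2 fold change of 0.29 ± 0.11 (95% interval 0.05 to 0.54) missed the threshold (limma adjusted p = 0.0736). It passed in limma without a trend (adjusted p = 0.0366) and with quantile normalization, where it was 0.58 (limma adjusted p = 0.00894). In GENCODE M21, 22.1% of its exon bases are shared with an antisense gene, AC137853.2. Reads of that part cannot be placed on either gene, since no source used here says whether strand was counted.

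Dusp2, a nuclear phosphatase found mainly in blood cells, stood at 5.31, 6.36 and 6.75 CPM in KO, against 6.46, 5.76 and 6.44 CPM in WT. The groups overlapped and the log2 fold change was -0.02 ± 0.11 (95% interval -0.27 to 0.23, limma adjusted p = 0.907). Dusp16, which acts on JNK and p38, stood at 31.2, 33.4 and 32.1 CPM in KO, against 31.1, 34.0 and 35.4 CPM in WT. Its log2 fold change was -0.05 ± 0.07 (95% interval -0.22 to 0.12, limma adjusted p = 0.635). Dusp3 encodes a small phosphatase without the kinase-docking domain of the others. It stood at 250.3, 270.4 and 253 CPM in KO, against 262, 266 and 263 CPM in WT. The log2 fold change of Dusp3 was -0.03 ± 0.06 (limma adjusted p = 0.716), and its 95% interval in folds was 0.891 to 1.07. The WT libraries agreed closely for Dusp3, with a coefficient of variation of 4.27% in KO and 0.747% in WT, and 99.3% of tested genes varied more within WT. Of the exon bases of Dusp3, 12.9% are shared with the antisense gene Gm20659.

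Spred1 encodes a membrane-bound inhibitor that brings neurofibromin, a Ras GTPase activator, to Ras. It was the most abundant member. Spred1 stood at 779.6, 702 and 786 CPM in KO replicates 1, 2 and 3, against 406, 651 and 627 CPM in WT replicates 1, 2 and 3. All KO libraries were above all WT libraries, and WT replicate 1 was far below the other WT libraries, at 0.636 of their mean. The mean was 756 ± 46.5 CPM in KO and 561 ± 135 CPM in WT, and the log2 fold change of 0.46 ± 0.17 (95% interval 0.07 to 0.85) missed the threshold (limma adjusted p = 0.0758). Without WT replicate 1 the estimate was smaller, 0.24, and passed (limma adjusted p = 0.0304). Without WT replicate 2 it was 0.58 and passed as well (limma adjusted p = 0.0207). DESeq2 on recovered reads also called Spred1 (adjusted p = 0.0101). So did limma with TMM factors (adjusted p = 0.0468) and with libraries centred on their medians (adjusted p = 0.0499). Spred1 thus passed in 5 of 18 other settings and missed the threshold in 13.

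Spred1 and Dusp2 both lie on chromosome 2, most of whose tested genes were higher in KO. The median log2 fold change of its 856 tested genes was 0.34, with 58.3% called higher and 5.14% called lower. Spred1 lay 0.12 above that median and Dusp2 lay 0.36 below it. When each library was centred on the median of each chromosome, a setting chosen after the data were seen, the log2 fold change of Spred1 was 0.14 (limma adjusted p = 0.554) and that of Dusp2 was -0.34 (limma adjusted p = 0.0469). Dusp1, Dusp4 and Dusp6 kept their direction and call under that setting, at -0.99, 0.27 and 0.50, and Dusp5 passed the threshold (0.35, limma adjusted p = 0.0380). Dusp16 and Apobec1 lie on chromosome 6, whose 517 tested genes had a median log2 fold change of -0.16. Of these, 5.61% were called higher and 30.0% lower. The cause of these chromosome-wide shifts was not tested.

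**Figure D3:**
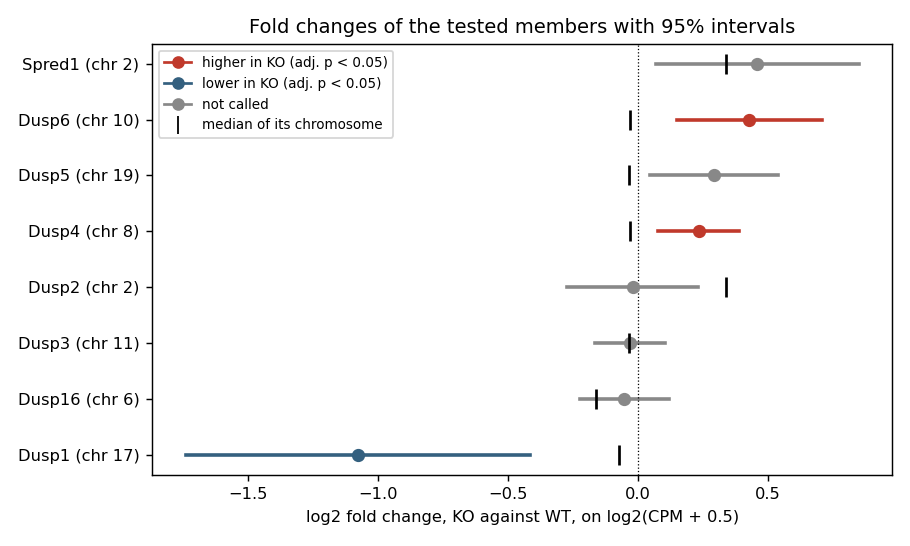
Log2 fold change of each tested member, KO against WT, with its 95% interval from limma, and a tick at the median of the member's chromosome. Dusp1 lies furthest from 0 at -1.08, while the interval of Spred1 spans the chromosome 2 median of 0.34 and that of Dusp2 lies below it.

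The Sprouty genes proper were not expressed at a level that could be compared. Spry1 had 0 reads in all 6 libraries, which allows up to 0.0426 to 0.0502 CPM in the KO libraries and 0.0445 to 0.0594 CPM in the WT libraries (a limit of 3 reads, for counting error only). Spry2 had 5, 3 and 1 reads in KO, against 2, 3 and 3 reads in WT. These values of Spry2 overlap and lie around the limit that a count of 0 allows. In SPRED and Sprouty relatives outside the members, Spred2 was expressed and Spry3 and Spry4 were at 0 to 0.0284 CPM in all libraries. Spred3 was below the filter and not tested, with 32, 25 and 36 reads in KO, against 42, 106 and 46 reads in WT, or 0.471 ± 0.0626 CPM in KO and 1.06 ± 0.441 CPM in WT, without overlap.

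Levels were compared between members per kilobase of annotated exon. The annotated Dusp1 gene (chr17:26505590-26562128, minus strand) reaches far upstream of the RefSeq start used above. Its 3311 exon bases may therefore overstate the length of its transcript and understate its level per kb. The place of Dusp1 in the order, and its overlaps with neighbours, depend on that annotation. In KO the order, high to low, was Spred1, Dusp3, Dusp4, Dusp6, Dusp16, Dusp1, Dusp2 and Dusp5, at 111, 55.1, 25.6, 8.81, 4.14, 3.17, 3.07 and 0.903 CPM per kb. In KO only Dusp1 and Dusp2 had overlapping values among neighbours in that order. In WT Dusp1 stood next below Dusp4, at 7.26 ± 2.86 CPM per kb, overlapping Dusp6 at 6.55 ± 0.993 CPM per kb. No other neighbours overlapped in WT. Spred1 and Dusp3 together took 86.4% to 87.8% of the members' reads in KO and 83.6% to 86.0% in WT.

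**Figure D4:**
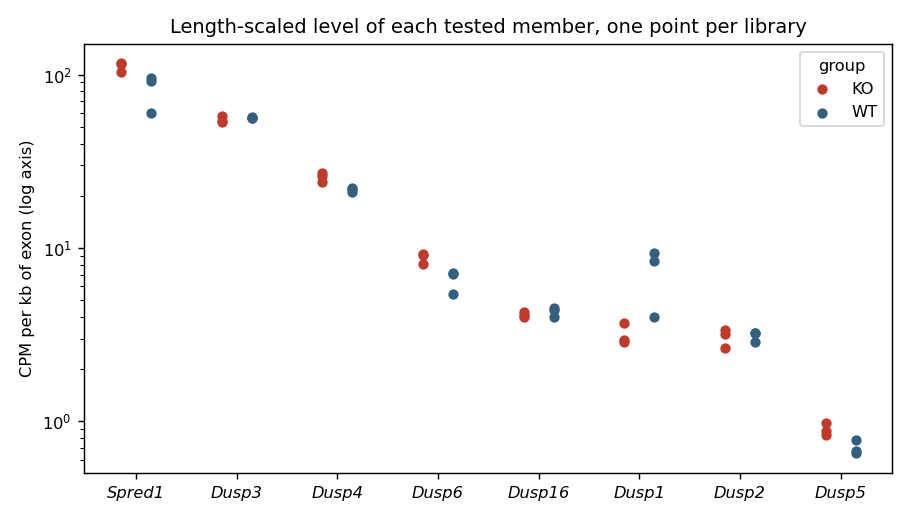
CPM per kb of exon (log axis) of each tested member in every library, KO left of WT, ordered by the KO mean. The levels span from 111 CPM per kb for Spred1 to 0.903 CPM per kb for Dusp5 in KO. By the annotated exon lengths, Dusp1 sits above Dusp16 in every WT library and below it in KO. In WT replicate 1 the 2 are close, at 4.01 and 3.99 CPM per kb.

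Among 8 other genes of MAP kinase phosphatases and their relatives, 5 were tested, of which 2 were higher and 2 lower in KO. Ptpn7, a tyrosine phosphatase of blood cells that binds ERK and p38, stood at 157 ± 4.61 CPM in KO and 118 ± 6.79 CPM in WT (log2 fold change 0.41 ± 0.06, limma adjusted p = 0.00257). Dusp7, the closest cytoplasmic relative of Dusp6, stood at 30.9 ± 3.23 CPM in KO and 23.7 ± 1.40 CPM in WT (log2 fold change 0.37 ± 0.10, limma adjusted p = 0.0216). The call of Dusp7 was lost without KO replicate 2 (limma adjusted p = 0.0861), KO replicate 3 (0.0806) or WT replicate 3 (0.0671). Dusp9, another cytoplasmic ERK phosphatase, had 2, 3 and 5 reads in KO, against 88, 98 and 92 reads in WT. Its log2 fold change of -1.92 ± 0.11 (limma adjusted p = 1.44e-05) understates the difference because of the pseudocount of 0.5. Styxl1, a relative that lacks catalytic activity, was lower, at 0.564 ± 0.0215 CPM in KO and 1.17 ± 0.181 CPM in WT (limma adjusted p = 0.00480). Both Dusp9 and Styxl1 reached 1 CPM in the WT libraries alone, so they entered the test through the group in which they were high. Without WT replicate 1 neither was tested, and the list then had 2 genes higher and 0 lower, with a median log2 fold change of 0.41, against -0.31 with all libraries.

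Of 13 atypical dual-specificity phosphatases, 9 were tested, 1 was higher and 0 were lower in limma. At an unadjusted p under 0.05 limma had 1 lower, and edgeR and DESeq2 called 0 lower. The median log2 fold change of the list was 0.07. Dusp18, found in mitochondria, was the one that was higher, at 19.9 ± 0.368 CPM in KO and 16.4 ± 1.04 CPM in WT (limma adjusted p = 0.0292). Leaving out KO replicate 1, 2 or 3 or WT replicate 2 ended that call (limma adjusted p = 0.0875, 0.103, 0.0855 and 0.0553). Among 9 relatives and partners of Sprouty and SPRED, 6 were tested, with 1 higher and 1 lower. Without WT replicate 1 that list had 2 higher and 1 lower. Spred2, the relative of Spred1 on chromosome 11, stood at 58.8, 59.1 and 62.5 CPM in KO, against 43.5, 42.6 and 42.0 CPM in WT. Its groups were well apart and its log2 fold change was 0.49 ± 0.06 (limma adjusted p = 0.000843). Lztr1, an adaptor for the ubiquitination of Ras proteins, was lower, at 37.1 ± 1.44 CPM in KO and 51.7 ± 2.26 CPM in WT (limma adjusted p = 0.00158).

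In the Ras-ERK cascade, 21 of 22 genes were tested, of which limma called 0 higher and 4 lower, with a median log2 fold change of -0.0007. At an unadjusted p under 0.05 limma had 1 higher, and edgeR and DESeq2 each called 1 higher and 3 lower. Araf, a kinase at the entry of the cascade, stood at 46.2 ± 3.14 CPM in KO and 63.8 ± 6.65 CPM in WT (limma adjusted p = 0.00736). Rasa3, a GTPase activator of Ras and Rap, stood at 130.5 ± 4.00 CPM in KO and 171 ± 6.88 CPM in WT (limma adjusted p = 0.00234). Mapk3, which encodes ERK1, was called at 75.4 ± 4.21 CPM in KO and 91.1 ± 8.35 CPM in WT (limma adjusted p = 0.0426), and lost the call under 14 of 18 other settings, among them the limma fits without KO replicates 1, 2 and 3 (adjusted p = 0.140, 0.0596 and 0.130) and WT replicates 1 and 3 (0.0613 and 0.112). Without WT replicate 1 this list had 1 gene higher and 4 lower.

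In the p38 and JNK cascades, 17 of 20 genes were tested, 2 were higher and 3 lower, and the median log2 fold change was -0.07. Without WT replicate 1 this list had 3 higher and 4 lower. Map3k8, a kinase that also activates ERK, was counted in this list and was among the 3 lower genes. Map3k7, which encodes the kinase TAK1, stood at 157 ± 1.58 CPM in KO and 128 ± 7.78 CPM in WT (limma adjusted p = 0.0104). Map3k4 stood at 86.8 ± 0.879 CPM in KO and 71.3 ± 4.86 CPM in WT (limma adjusted p = 0.0162), a call that was lost without KO replicate 1, 2 or 3 or WT replicate 3 (limma adjusted p = 0.0695, 0.0541, 0.0528 and 0.0658). Map2k7, a kinase of JNK, was lower, at 53.8 ± 2.52 CPM in KO and 66.9 ± 3.30 CPM in WT (limma adjusted p = 0.0115), and was not called without KO replicate 1 or 2 (0.0550 and 0.0530). Mapk11, which encodes p38 beta, was 2.82-fold lower in mean CPM, with 68, 82 and 85 reads in KO, against 179, 261 and 162 reads in WT (log2 fold change -1.19 ± 0.15 on the log2(CPM + 0.5) scale, limma adjusted p = 0.000764). Mapk14, the abundant p38 alpha, had a log2 fold change of 0.10 and was not called (limma adjusted p = 0.449).

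Of 15 transcripts known to rise with ERK activity, 10 were tested, with 5 higher and 3 lower, and a median log2 fold change of 0.11. Without WT replicate 1 the list had 5 higher and 4 lower, with a median of 0.13. Epha2, a receptor tyrosine kinase, stood at 3.43 ± 0.199 CPM in KO and 0.416 ± 0.159 CPM in WT, 8.27-fold higher in KO (limma adjusted p = 3.26e-05). Epha2 reached 1 CPM in KO alone, and Etv4, also among the higher genes, in KO and WT replicate 1. Both thus entered the test through the group in which they were high. Plaur, the urokinase receptor, stood at 15.4 ± 0.0450 CPM in KO and 8.67 ± 1.15 CPM in WT (limma adjusted p = 0.000846). Ccnd1, cyclin D1, stood at 313 ± 3.90 CPM in KO and 235 ± 8.01 CPM in WT (limma adjusted p = 0.00135). Ier3, an immediate early gene, was lower, at 24.3 ± 0.965 CPM in KO and 30.9 ± 1.01 CPM in WT (limma adjusted p = 0.00807). The list thus had called members on both sides, as did the members themselves.

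**Figure D5:**
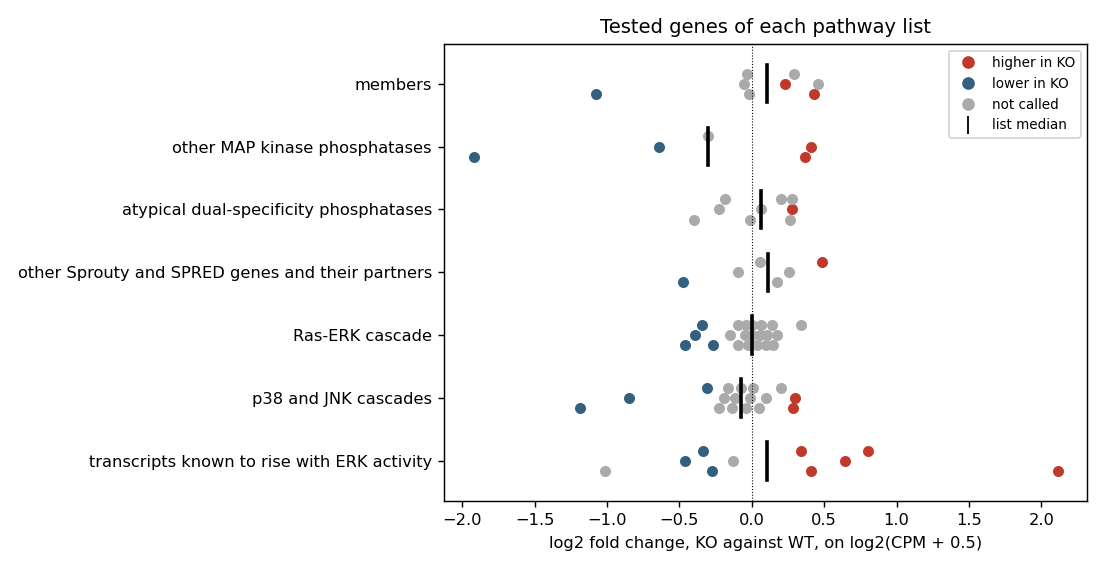
Log2 fold change of each tested gene of the members and of 6 lists of related genes, coloured by call, with the median of each list as a bar. Medians lie between -0.31 for the other MAP kinase phosphatases (0.41 without WT replicate 1, where Dusp9 and Styxl1 were not tested) and 0.11, and the 4 called genes of the Ras-ERK cascade all lie below 0.

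Promoter letters and calls were also set side by side over all tested genes. Of 337 tested genes with a full CRE in a promoter, 9.50% were higher and 13.1% lower in KO, against 13.9% and 16.8% of the 8487 tested genes with a promoter in the table. Of 116 tested genes with a CArG box, 19.0% were higher and 17.2% lower in KO. These shares are descriptions of these libraries.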

How the data were processed

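The members and gene lists were chosen with earlier results of these data known. Per the submitters' processing notes, the tools were Trim Galore, FastQC and STAR 2.6.0a, followed by Picard and SAMtools, with mm10 as the genome build. Duplicates had been removed, per the file headers. The sources used here name neither the program that counted reads nor its annotation or strand setting. The deposited values are CPM, the counts of reads per gene that the authors scaled to the same total in each library. Each value was a whole multiple of a single read's worth (100% of values, tolerance 0.01 of a read). That step, 0.0142 to 0.0198 CPM, was used to recover the reads.

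The fit was limma 3.58.1 (R 4.3.3, lmFit and eBayes with a trend, no covariates) on log2(CPM + 0.5), for genes that reached 1 CPM in 3 or more libraries, and it was checked on simulated data. Alternatives were other pseudocounts, filters and scalings, no trend, a replicate block, each library left out, and edgeR 4.0.16 and DESeq2 1.42.0 on recovered reads. Beside all members, up to 4 called genes per list by adjusted p are named, and the 3 genes nearest in centred log2 profile to each of the 2 members with the lowest adjusted p. One gene that this rule names is not reported here. Fos, Mapk14, Spry3, Spry4, Spred3, Egr1, Lyz2 and Adgre1 were named after their values were seen. Positions and exon lengths come from GENCODE M21 (mm10), promoters from RefSeq (GRCm38.p6).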

Additional observations from a re-analysis of the deposited data

How the results depend on the processing

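Under 18 alternative settings Dusp1, Dusp4, Dusp6, Dusp5 (17 settings, since it falls below a 5 CPM minimum), Dusp3 and Spred1 kept their direction. The log2 fold change ranged from -1.45 to -0.85 for Dusp1, 0.20 to 0.28 for Dusp4, 0.30 to 0.50 for Dusp6, 0.24 to 0.58 for Dusp5 and 0.14 to 0.58 for Spred1. Dusp2 ranged from -0.34, when libraries were centred per chromosome, to 0.18, and changed sign with TMM factors (0.00317), quantile normalization (0.18), edgeR (0.00616) and DESeq2 (0.00724), and ranged from -0.088 to 0.072 when 1 library was left out, with a positive sign without KO replicate 1, WT replicate 1 or WT replicate 3. Dusp16 changed sign when libraries were centred per chromosome (0.12). Quantile normalization ended the call of Dusp4 (adjusted p = 0.0623) and of Styxl1 (-0.16, adjusted p = 0.342).

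Leaving out 1 library at a time gave 1918 to 3527 called genes, 913 to 1643 higher and 1005 to 1884 lower, and 0 to 4 called members, 0 to 3 higher and 0 to 1 lower. With 1 library fewer, fewer samples bear on each test. Libraries centred per chromosome gave 5 called members, 2 of them lower, the added calls being Dusp2 and Dusp5; the cause was not tested. With a replicate block 2009 genes were called, 891 higher and 1118 lower, and 1 member, Dusp1, with 0 members higher in limma. The block also ended the calls of Map3k7 and Ier3 (limma adjusted p = 0.0551 and 0.0554). Dusp7, Dusp18, Mapk3, Map2k7, Map3k4, Stk3 and Lims1 likewise lost their calls with it. Deviations of same-numbered libraries from their group means correlated at -0.247, -0.641 and -0.173 across genes. For libraries of unlike number the values were 0.579 (KO replicate 2 with WT replicate 1), 0.614 (KO 3 with WT 2) and 0.290 (KO 1 with WT 3). The remaining pairings lay at -0.438 to 0.0994. Deviations within a group sum to 0, so these values depend on each other and cannot tell whether plates were handled in pairs or batches. With 3 libraries a group, an exact permutation test cannot give a p below 0.1.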

Other observations

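Some called genes of the pathway lists lie outside the naming rule and were chosen after their values were seen. Whether their calls hold under the other settings or without single libraries is not given here. Map3k8, the kinase that activates ERK after Toll-like receptor signalling in macrophages, stood at 8.14, 6.61 and 10.7 CPM in KO, against 12.5, 20.1 and 14.5 CPM in WT (log2 fold change -0.85 ± 0.21, limma adjusted p = 0.0170), so that all KO values lay below all WT values. The ETS factor genes Etv4 and Etv5, both known as ERK-induced, were called in opposite directions. Etv4 stood at 1.67 ± 0.282 CPM in KO and 0.887 ± 0.176 CPM in WT (limma adjusted p = 0.0119), and Etv5 at 15.8 ± 0.753 CPM in KO and 19.2 ± 0.103 CPM in WT (limma adjusted p = 0.0229). Of the WT libraries only replicate 1 reached 1 CPM for Etv4 (1.09 CPM), so Etv4 entered the test through KO, where it was high. Among the EGR factors, Egr2 stood at 8.12 ± 0.189 CPM in KO and 6.31 ± 0.243 CPM in WT (limma adjusted p = 0.0146), and Egr3 at 1.90 ± 0.278 CPM in KO and 2.81 ± 0.433 CPM in WT (limma adjusted p = 0.0349). Egr1 was below the filter and not tested, with 38, 23 and 28 reads in KO, against 4, 5 and 5 reads in WT, without overlap.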
